A study of Mus musculus with 12 samples.

Results

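The proteins that build the small nuclear ribonucleoproteins (snRNPs) of the spliceosome were examined as mRNA levels in the prefrontal cortex (PFC) of cocaine-treated mice. Members were all genes whose symbol begins with Snrp, Snrnp, Sf3a or Sf3b, or with Lsm followed by a digit, and that Cuffdiff had listed with a usable value (status OK). This gave 41 genes in all, 40 of them at 2 h, 40 at 24 h and 41 at 7 d, among 16012, 17143 and 16769 usable loci. Their rows numbered 42, 43 and 42, since a few genes were listed in a second row, for Snrnp70, Snrpn and Snrpd1 over the same span and for Sf3b5 at a separate locus. Each gene is described by its row of longest span or, where spans were equal, of higher mean FPKM, and the second rows are given separately.

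The mice were C57BL/6 animals (C57BL/6 J in the study's methods) aged 10 weeks given saline or cocaine in repeated daily injections, and the PFC was taken at 2 h, at 24 h or at 7 d once the injections had ended. There were 6 groups with 2 RNA-seq libraries each, 12 in all, and tissue from 5 mice went into every library. The deposited tables hold 1 FPKM (a fragment count divided by transcript length and library size) for each group, made by pooling the 2 libraries. No value per library was used, so no level below has an SD and no difference has a test. Each time point had a saline group of its own and was normalised in a run of its own.

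Introns are removed by the spliceosome, which is assembled from the U1, U2, U4, U5 and U6 snRNPs. Each of the U1, U2, U4 and U5 particles carries a ring of Sm proteins around its RNA, and U6 carries a related ring of Lsm proteins. U1 recognises the 5′ splice site, and U2, through its SF3a and SF3b complexes, holds the branch point. The minor spliceosome uses U11 and U12 in place of U1 and U2, and the U7 snRNP, which carries Lsm10 and Lsm11, trims the 3′ ends of histone mRNAs instead of splicing. In bulk tissue, fewer cells of a type and less RNA per cell cannot be told apart.

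Most proteins of the Sm and Lsm rings are very small, and so are most of their mRNAs. Lsm14a, Lsm14b and Lsm11, which count among the Lsm members here, have longer coding sequences, of 1389, 1158 and 1086 nt. The coding sequence of Snrpg, which encodes SmG of the Sm ring, had 231 nt, against 6411 nt for Snrnp200, the U5 helicase. It is shown whole, from the GENCODE M1 transcripts and with the start and stop codons in capitals, because the size of these mRNAs recurs in the comparisons that follow.
Snrpg coding sequence: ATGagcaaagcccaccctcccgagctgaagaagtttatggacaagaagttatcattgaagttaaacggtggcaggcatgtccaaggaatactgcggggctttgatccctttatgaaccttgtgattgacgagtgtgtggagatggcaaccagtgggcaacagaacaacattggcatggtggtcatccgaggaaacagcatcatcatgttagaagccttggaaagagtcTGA
The longest annotated protein-coding transcript of a member ran from 468 nt for Lsm7 to 6745 nt for Snrnp200. It was under 1500 nt for 22 members, which are called short here. These 22 were 17 Snrp and Lsm genes (Lsm2, Lsm3, Lsm4, Lsm5, Lsm7, Lsm8, Lsm10, Snrpa, Snrpa1, Snrpb, Snrpc, Snrpd1, Snrpd2, Snrpd3, Snrpe, Snrpf and Snrpg) and 5 genes of the other families (Sf3b5, Sf3b6, Snrnp25, Snrnp27 and Snrnp35). Among the 19 longer members, 11 were Sf3 or Snrnp genes and 8 were Snrp or Lsm genes.

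FPKM is a level per transcript length, so it can be set side by side between genes. Snrpn stood highest, with a median of 424 FPKM over the 6 groups and a range of 399 to 453. It encodes SmN, the neuronal relative of SmB, from an imprinted locus. Next came Snrpd2, an Sm ring subunit, at a median of 101 FPKM and a range of 95.6 to 132. The lowest member was Snrnp48, a U11/U12 protein, at a median of 2.83 FPKM. The ranges of Snrpn and Snrpd2 over the groups did not overlap, and Snrpd2 was the only member other than Snrpn whose level passed 100 FPKM in any group.

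**Figure D1:**
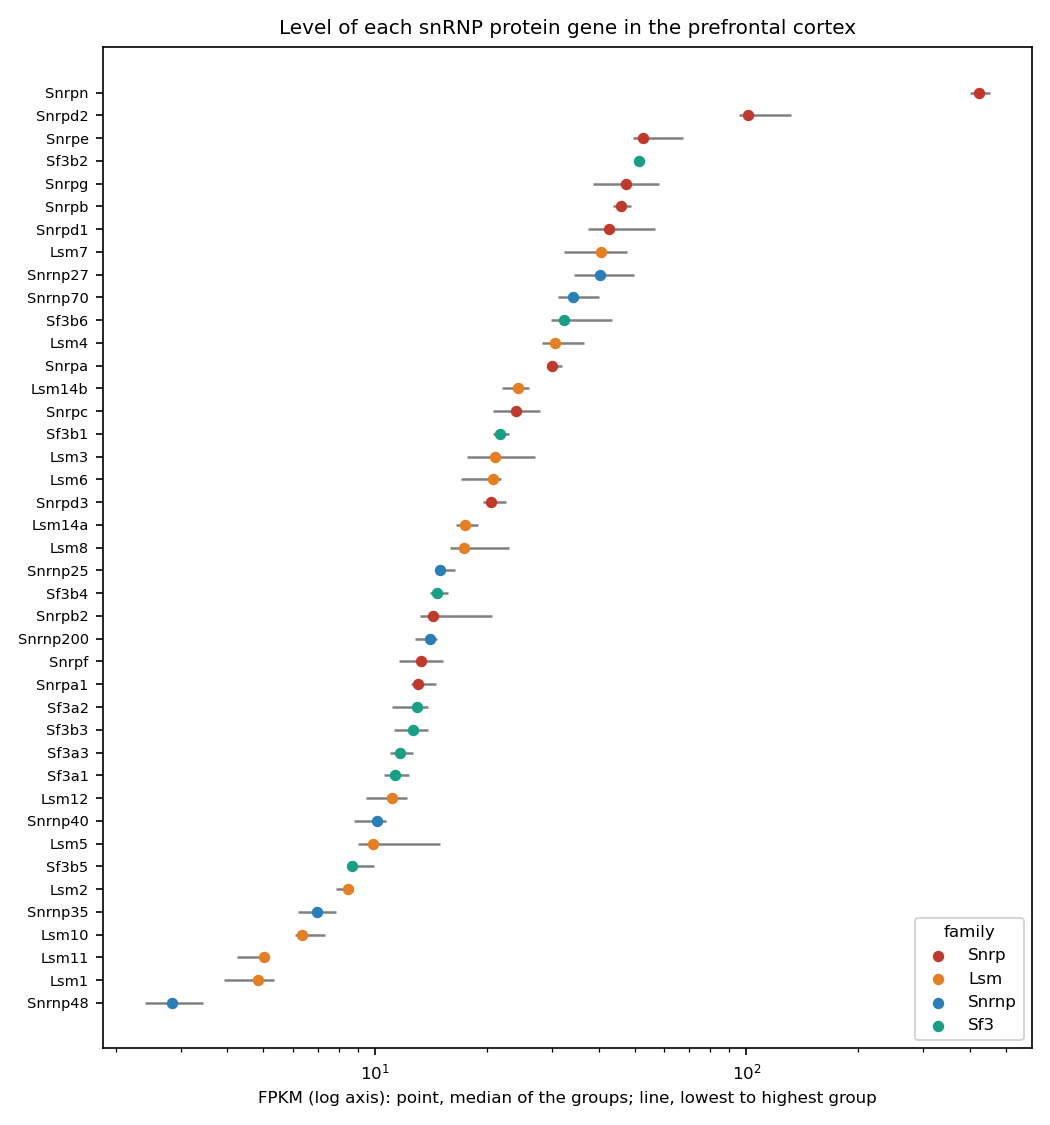
FPKM of each member on a log axis, with the median of the 6 groups as a point and the lowest to highest group as a line, ordered by level and coloured by family. Snrpn lies between 399 and 453 FPKM, above all others, and Snrnp48 is lowest at a median of 2.83 FPKM.

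At 7 d 15 of the 16 genes of the Sm and Lsm rings had a lower level in the cocaine group than in the saline group. For 8 of these 15 the difference was 1.2-fold or more. Of all genes with transcripts under 1500 nt, 30.7% were lower by as much. The 16 Sf3 and Snrnp genes were split, 8 below and 8 above equality with 1 past 1.2-fold. Of all loci with a mean of at least 1 FPKM, 7250 of 13805 were below equality. Of the genes with transcripts under 1500 nt, 1489 of 1821 were below it, so this direction was not particular to the rings. A difference was counted when it was at least 1.2-fold on the scale log2((cocaine FPKM + 0.1)/(saline FPKM + 0.1)), in loci with a mean of at least 1 FPKM. By this measure 11 of 41 members (26.8%) were lower and 0 were higher, while over all loci 12.5% were lower and 8.58% higher. The member median was -0.09, with 28 members below 0 and 13 above, and the median of all loci was -0.01. The 11 lower genes were Lsm5, Snrpb2, Sf3b6, Lsm3, Snrpd2, Snrpg, Lsm8, Snrpd1, Snrpe, Snrpc and Lsm7.

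The Sm ring is the base on which each snRNP is built. All 8 Sm genes had a log2 ratio below 0 at 7 d, with a median of -0.26, and 4 (50%) were lower past 1.2-fold. Of all 764 genes under 1000 nt, 632 were below 0, with a median of -0.22, and 42.3% were lower past 1.2-fold. All Sm genes but Snrpb and Snrpn were of that length, so the Sm values lay near those of short genes in general. Snrpd2 (chr7:19149722-19152735, GRCm38) was at 132 FPKM with saline and 95.6 with cocaine at 7 d, against 96.1 and 97.5 at 2 h and 104 and 104 at 24 h. Cocaine at 7 d was thus 72.5% of saline, a log2 ratio of -0.46, and the 7 d saline value was the one that stood away from the other 5. Snrpg (chr6:86371455-86378905) was at 58.2 with saline and 42.7 with cocaine at 7 d, 73.3% of saline, after 38.6 and 42.6 at 2 h and 52.2 and 52.2 at 24 h. Snrpe (chr1:133603871-133610291), which encodes SmE, had 67.4 and 54.1 FPKM at 7 d, 58.0 and 49.5 at 24 h and 51.5 and 50.9 at 2 h, so that cocaine was below saline at each time by a growing margin. Snrpd1 on chromosome 18 had 56.6 and 43.7 FPKM at 7 d, but cocaine was above saline at 24 h, with 37.5 and 41.0, and below it at 2 h, with 45.7 and 41.5.

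The remaining Sm genes differed by less than 1.2-fold. Snrpd3 had a log2 ratio of -0.20 at 7 d, from 22.5 to 19.5 FPKM, and Snrpf had -0.15, from 15.2 to 13.7. Snrpb and Snrpn encode alternative occupants of the same ring position, and their log2 ratios were -0.09 and -0.04. Both have longer mRNAs than the other ring genes, with a longest transcript of 1161 nt for Snrpb and 2076 nt for Snrpn, against 604 to 861 nt for the 6 other Sm genes.

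The Lsm ring exists in a nuclear form on U6, with Lsm2 to Lsm8, and a cytoplasmic form in mRNA decay, in which Lsm1 takes the place of Lsm8. Its 8 genes had a median log2 ratio of -0.18 at 7 d, and 4 (50%) were lower past 1.2-fold. The matching shares were 12.5% of all loci, 30.7% of genes under 1500 nt and 42.3% of genes under 1000 nt. Lsm5 (chr6:56701063-56704692) showed the lowest ratio of all members, with 15.0 FPKM for saline and 9.83 for cocaine at 7 d, a log2 ratio of -0.60. Its earlier values were 9.89 and 8.99 at 2 h and 10.9 and 9.73 at 24 h. The 7 d saline value of Lsm5 was above all 5 others, and the 7 d cocaine value lay inside their range. Lsm3 (chr6:91515928-91522625) had 27.0 and 19.5 FPKM at 7 d, 19.4 and 17.7 at 24 h and 22.6 and 22.5 at 2 h. Lsm8 (chr6:18848565-18855751), specific to the nuclear ring, had 22.9 and 17.6 FPKM at 7 d, 16.2 and 15.9 at 24 h and 17.9 and 17.1 at 2 h.

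Lsm7 (chr10:80852825-80855209) sat nearest to the threshold on the lower side, with 47.7 and 39.4 FPKM at 7 d, 82.7% of saline. At 24 h it had 41.8 and 42.3 FPKM, and at 2 h 34.3 and 32.2. The other 4 ring genes were apart from these. Lsm2 was higher in the cocaine group at 7 d, with 7.82 FPKM for saline and 8.49 for cocaine, the only short member with a ratio above 0. Lsm4 had 32.5 and 30.4 FPKM. The 2 ring genes with long mRNAs were near equality, Lsm6 with 21.9 and 20.8 FPKM and a longest transcript of 3792 nt, and Lsm1 with 4.87 and 4.78 FPKM and 2360 nt. The coding sequences of these 2 are as small as those of the other ring genes, 243 nt for Lsm6 and 402 nt for Lsm1.

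The U1 proteins were split. Snrpc, which encodes U1-C (chr17:27839974-27851968), was lower at 7 d, with 27.7 FPKM for saline and 22.8 for cocaine, 82.4% of saline. At 24 h it had 23.1 and 20.7 FPKM, and at 2 h 24.9 and 24.8. Snrpa, encoding U1-A, had 29.4 and 29.0 FPKM at 7 d, and Snrnp70, encoding U1-70K, had 38.3 and 40.0. Their log2 ratios of -0.02 and 0.06 place neither far from equality.

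In the U2 particle 2 of 11 genes (18.2%) were lower past 1.2-fold at 7 d, beside 12.5% of all loci. Snrpb2 encodes U2-B″, the RNA-binding partner of Snrpa1. It lies at chr2:143063039-143072853 and had 20.6 FPKM for saline and 13.6 for cocaine at 7 d, 66.3% of saline. Its cocaine value was also below saline at 2 h (16.1 and 13.8) and at 24 h (15.0 and 13.2), with log2 ratios of -0.22 and -0.18, and so it lay on the same side in 3 comparisons, each with a saline group of its own. Snrpa1, its partner, had ratios of -0.06, 0.17 and -0.10. Sf3b6 encodes the small SF3b subunit that contacts the branch point, and lies at chr12:4817608-4827658. It had 43.3 and 29.8 FPKM at 7 d, 33.1 and 29.8 at 24 h and 35.0 and 31.4 at 2 h, again with cocaine below saline at each time. In all, 9 of 40 members (22.5%) had a ratio below 0 at all 3 times, beside 14.5% of 12618 genes, namely Lsm3, Lsm5, Lsm8, Snrpe, Snrpf, Snrpc, Snrnp25, Sf3b6 and Snrpb2. Of these, 8 were among the 22 short members (36.4%), beside 23.8% of genes of that length.

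The large SF3 subunits behaved otherwise. Sf3b1, the scaffold of SF3b, had 21.9 and 21.5 FPKM at 7 d. Sf3b3 had 11.2 and 12.6, and Sf3a2 had 11.1 and 12.5. Of the 9 SF3 genes Sf3b6 was the only one past 1.2-fold (11.1%, beside 12.5% of all loci lower). The median log2 ratio of the 9 was 0.02. Sf3b5, another small subunit, had 9.92 and 8.50 FPKM, a log2 ratio of -0.22. Sf3b2 was a member at 7 d alone, with 50.9 and 51.5 FPKM. At 2 h and 24 h its locus carried a joint name with Pacs1, with 74.5 and 72.7 FPKM and 71.0 and 76.3 FPKM, and it was not counted there.

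None of the 7 Snrnp genes passed 1.2-fold at 7 d, beside 12.5% of all loci lower and 8.58% higher. Their range was -0.22 to 0.15. The U5 helicase gene Snrnp200 had 12.8 FPKM for saline and 14.2 for cocaine. Snrnp40, another U5 protein, had 10.7 and 9.58, and Snrnp27, of the U4/U6.U5 tri-snRNP, had 49.7 and 42.6. The 3 U11/U12 genes Snrnp25, Snrnp35 and Snrnp48 had log2 ratios of -0.16, -0.01 and 0.12. The Lsm-domain genes outside the rings, Lsm12, Lsm14a and Lsm14b, all had ratios above 0, of 0.19, 0.06 and 0.18. Lsm14a belongs to the proteins of cytoplasmic P-bodies. The U7 pair differed in direction, Lsm10 with 7.33 and 6.17 FPKM and Lsm11 with 4.47 and 5.12.

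**Figure D2:**
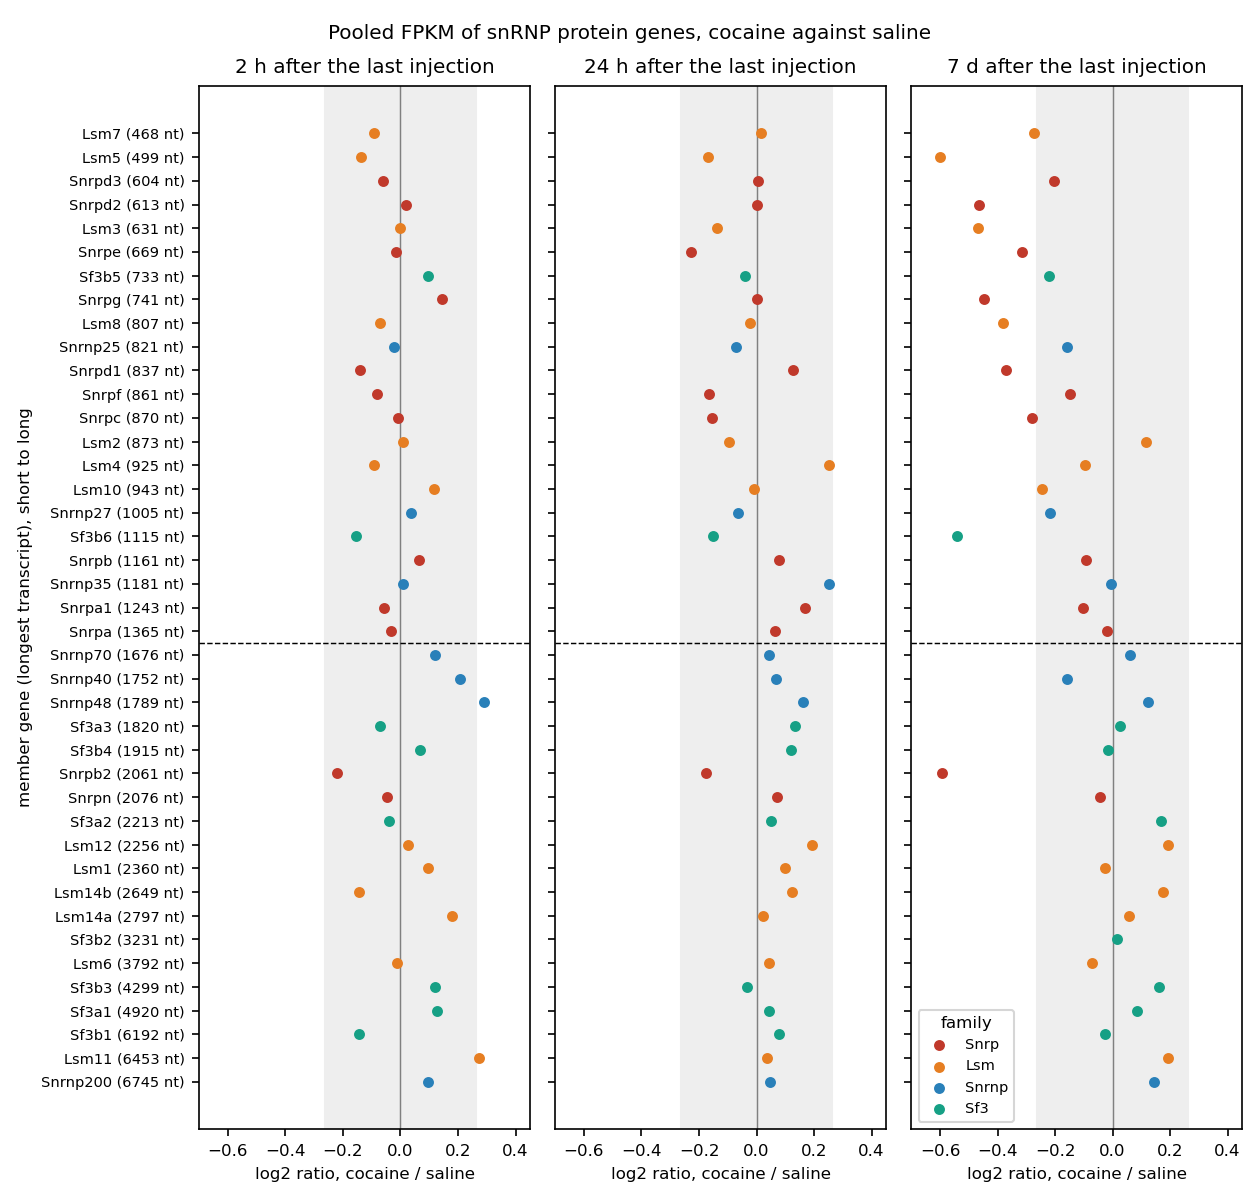
log2 ratio of cocaine to saline FPKM for each member at 2 h, 24 h and 7 d, with the 1.2-fold limits drawn. At 7 d 11 members lie beyond the lower limit and 0 beyond the upper one, while at 24 h all members lie between the limits.

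The families were then compared with each other and with transcript length, since the 2 divisions overlap in part. Of the 25 Snrp and Lsm genes 17 were short, and of the 16 Sf3 and Snrnp genes 11 were longer. The 25 Snrp and Lsm genes had a median log2 ratio of -0.15 at 7 d, with 10 lower past 1.2-fold, and the 16 Sf3 and Snrnp genes had a median of 0.01, with 1 lower. By length, the 22 short members had a median of -0.23, with 10 lower (45.5%) and 21 of 22 below 0. Of all genes under 1500 nt, 1489 of 1821 were below 0 and 30.7% were lower past 1.2-fold. The 19 longer members had a median of 0.06, with 1 lower (5.26%) and 12 above 0. Of all genes of 1500 nt or more, 5231 of 9644 were above 0 and 5.64% were lower past 1.2-fold.

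The genes that cross the 2 divisions were read separately. The 5 short Sf3 and Snrnp genes had a median of -0.22, all 5 below 0, beside -0.27 for the 17 short Snrp and Lsm genes. Past 1.2-fold, 1 of these 5 (20%) and 9 of these 17 (52.9%) were lower, beside 30.7% of all genes under 1500 nt. The 8 long Snrp and Lsm genes had a median of 0.02, near the 0.06 of the 11 long Sf3 and Snrnp genes. Of these 8 and 11, 1 (12.5%) and 0 were lower past 1.2-fold, beside 5.64% of genes of 1500 nt or more. Within each family group the short genes had the lower median, and within each length class the medians of the families were closer together than those of the length classes. Snrpb2 was the exception among the long members, at a log2 ratio of -0.59. Its longest transcript had 2061 nt, its median coding transcript 1348.5 nt and its coding sequence 678 nt. The other long members with a median transcript under 1500 nt were Lsm14a, Snrnp70 and Sf3a2, at 770, 862 and 1212.5 nt. Their coding sequences were longer, at 1389, 1347 and 1458 nt, and their ratios were 0.06, 0.06 and 0.17. Whether transcript length bears on the Snrpb2 ratio was not tested.

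Transcripts of this length were lower at 7 d far beyond the spliceosome. Over all 1821 genes under 1500 nt the median log2 ratio was -0.17, and 559 (30.7%) were lower past 1.2-fold and 3.46% higher. Over the 9644 genes of 1500 nt or more the median was 0.02, with 5.64% lower and 7.61% higher, and over the 3679 genes of 4000 nt or more it was 0.09. The 16 members under 1000 nt had a median of -0.28 with 9 lower (56.2%), beside -0.22 and 323 lower among the 764 genes of that length. When all genes were ordered by length in 20 groups, the shortest group, of median length 678.5 nt, had a median ratio of -0.24 and the longest, of median length 9153 nt, had 0.14.

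**Figure D3:**
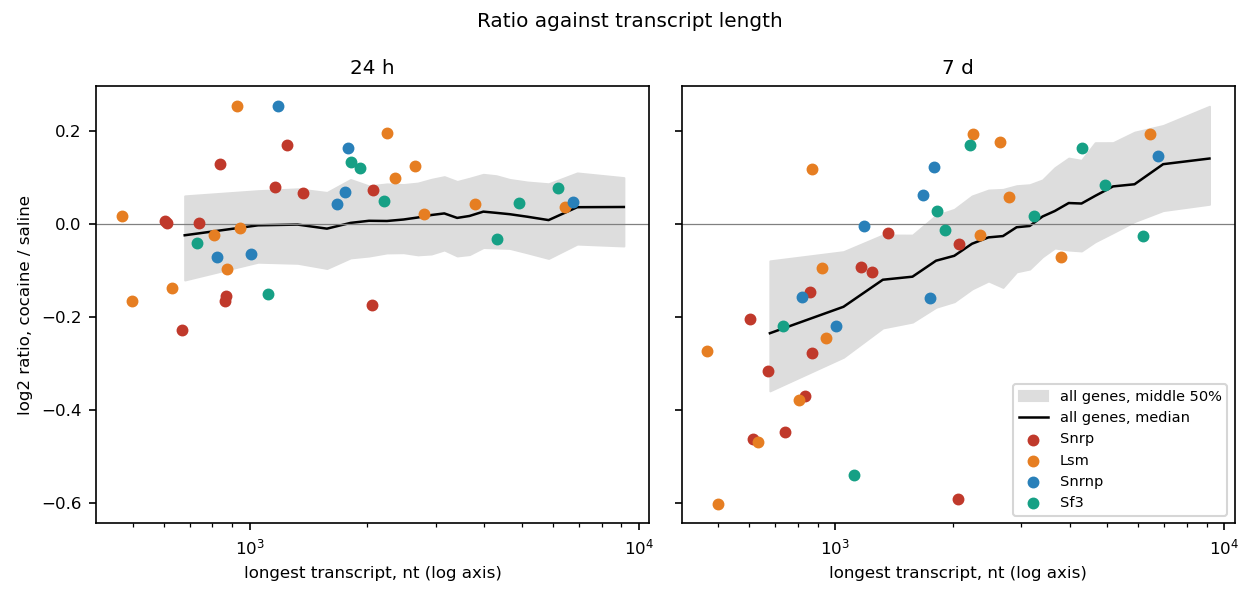
log2 ratio of cocaine to saline FPKM against the longest coding transcript in nt (log axis) at 24 h and 7 d, with members as points and the median of all genes in 20 length groups as a line. At 7 d the line runs from -0.24 to 0.14 and most members lie near it.

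Spearman's rho between length and ratio at 7 d was 0.75 over the 41 members and 0.48 over 11465 genes. With coding length in place of transcript length it was 0.72 and 0.40. At 2 h it was 0.28 over 40 members and 0.16 over 11504 genes, and at 24 h 0.45 over 40 members and 0.09 over 11612 genes. The genes of a comparison share the same 2 pooled samples, so these values are descriptions and carry no p.

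Subtracting the median of all genes of like length left few members past 1.2-fold. The member median at 7 d became 0.02, with 3 members lower past 1.2-fold (7.32%) and 1 higher (2.44%), where all genes gave 5.31% lower and 5.99% higher. By sign, 16 members were then below 0 and 25 above, with quartiles of -0.08 and 0.09. The 3 lower members were Snrpb2 at -0.52, Lsm5 at -0.37 and Sf3b6 at -0.36, and the higher one was Lsm2 at 0.35. Snrpd2, Lsm3 and Snrpg, at -0.23, -0.23 and -0.21, stayed inside the limit, as did Lsm12, Sf3a2, Snrnp48 and Lsm14b at 0.23, 0.21, 0.20 and 0.20, and the large genes Snrnp200, Sf3a1 and Sf3b1 were at 0.02, 0.00 and -0.11. Lengths were matched for 86.1% of the named genes at 7 d and for all members. What the length relation in the 7 d tables came from was not tested.

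The 6 groups were also set side by side. The 7 d saline group was the highest of the 6 for 20 of the 40 members with all 6 values (50%), among them all 11 members that were lower at 7 d. It was highest for 17 of 22 short members (77.3%) and for 3 of 18 long ones (16.7%). Over all genes the same group was highest for 3262 of 12618 (25.9%), for 58.4% of those under 1500 nt and for 19.0% of the longer ones. For the 11 lower members, 7 d saline exceeded the mean of the other saline groups by a median log2 ratio of 0.36, with a range of 0.21 to 0.52. Their 7 d cocaine values differed from the mean of the other cocaine groups by a median of 0.02, with a range of -0.15 to 0.11. For 9 of the 11 the 7 d cocaine level lay inside the range of the 4 earlier groups, and for Snrpd2 and Sf3b6 it lay just below, 95.6 against a lowest earlier level of 96.1 FPKM, and 29.76 against 29.83. The 11 were chosen for having 7 d saline above 7 d cocaine, so a high 7 d saline value among them partly follows from that choice and supports nothing further. The ratios share their values with the 7 d comparison and cross tables that were normalised separately.

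The short members as a whole had the same pattern. Their median log2 ratio of 7 d saline to 2 h saline was 0.25, with 9 of 22 higher past 1.2-fold and 0 lower, where 12.3% of all genes were higher and 10.4% lower, and of the genes under 1500 nt 31.5% higher and 4.25% lower. Against 24 h saline it was 0.22, with 8 of 22 higher and 0 lower, where 11% of all genes were higher and 14% lower, and of the genes under 1500 nt 28% higher and 6.29% lower. The matching ratios of the cocaine groups were 0.01 and 0.01. All genes under 1500 nt had medians of 0.16 and 0.14 for the same saline comparisons. Between the saline groups at 24 h and 2 h, which had the same treatment label, the members had a median of -0.02. Of 40 members, 3 were lower past 1.2-fold at 24 h (Lsm1 at -0.34, Lsm6 at -0.30 and Snrpd1 at -0.29) and 2 were higher (Lsm7 at 0.28 and Snrpg at 0.44), beside 5.72% and 9.48% of all genes. Snrpg thus differed between these saline groups by about as much as between cocaine and saline at 7 d.

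**Figure D4:**
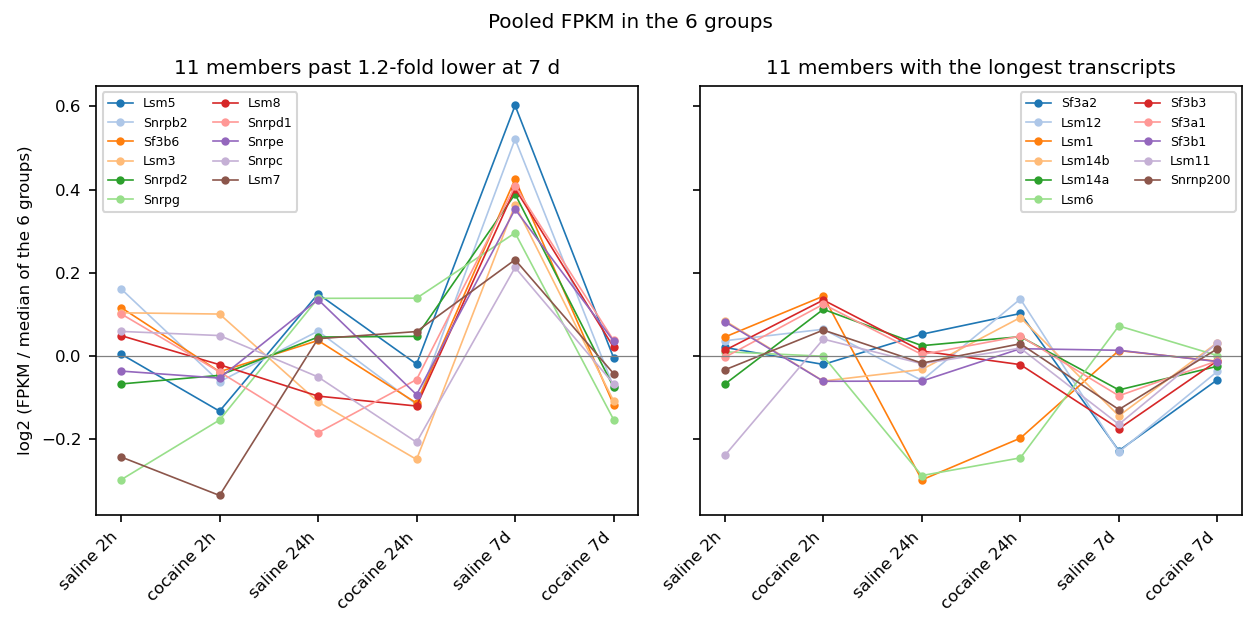
FPKM in each of the 6 groups as log2 relative to the member's median over the groups, for the 11 members that were lower at 7 d (left) and the 11 members with the longest transcripts (right). On the left the 7 d saline group is the highest of the 6 for all 11 genes, and on the right it is the highest for Lsm6 alone.

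At 2 h no member was lower past 1.2-fold and 2 (5%) were higher, beside 7.87% and 10.8% of all loci. The 2 were Lsm11, the U7 protein, with 4.24 FPKM for saline and 5.15 for cocaine, and Snrnp48, with 2.40 and 2.96. Both had low levels, and their log2 ratios of 0.27 and 0.29 were just past the limit of 0.26. Next below it was Snrnp40, at 0.21, with 8.79 and 10.2 FPKM. The member median at 2 h was -0.01, with -0.02 for the short and 0.08 for the long members.

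At 24 h 0 members passed 1.2-fold in either direction, beside 6.1% of loci lower and 6.62% higher. The widest ratios were 0.25 for Lsm4, from 30.7 to 36.6 FPKM, 0.25 for Snrnp35, from 6.18 to 7.39, and -0.23 for Snrpe. The median was 0.04, with 0.06 for the long and -0.02 for the short members. Above 0 lay 16 of 18 long and 10 of 22 short members. Of all genes, 5392 of 9768 of 1500 nt or more and 855 of 1844 shorter ones lay above 0. The Snrp and Lsm genes had a median of 0.02 and the Sf3 and Snrnp genes one of 0.05, a smaller gap than at 7 d.

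There were 2 pairs of members within 500000 bases of each other. Sf3a2 (chr10:80796100-80804999) and Lsm7 are 47825 bases apart, and their 7 d log2 ratios were 0.17 and -0.27. Snrpg and Snrnp27 (chr6:86675221-86684522) are 296315 bases apart, with -0.45 and -0.22.

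The promoters were read to see what members share in sequence. Windows from 250 bases before to 50 after the start were found in RefSeq (GRCm38.p6) for 33 of 41 members. These had 40 windows, as some genes have several starts, and a gene counted once if any of its windows matched. The core of an ETS-family site, CCGGAAG on either strand, was found for 13 of the 33 members (39.4%), for 19.0% of 8937 expressed genes and for 9.93% of 27025 genes. The cyclic AMP response element TGACGTCA was in 3 (9.09%), beside 3.55% of expressed genes, and the TATA box TATAAA in 4 (12.1%), beside 8.66%. The Sp1 motif GGGGCGGGG was in 3 (9.09%), beside 25.2%, and the NRF1 and YY1 motifs were in 1 member each. Both strands were searched, and overlaps between motifs were allowed. Of the 10 members with a window that were lower at 7 d, 6 held the ETS letters (Lsm5, Sf3b6, Snrpb2, Snrpc, Snrpe and Snrpg), and so did large genes that were not lower, such as Sf3b3 and Snrnp200. A match is a description of the letters and not evidence of binding. The 250 bases before the start are shown for 2 genes that were lower at 7 d and 1 large gene that was not, with the ETS letters and, in Snrpg, the cyclic AMP response element in capitals. Each lies on the plus strand, and in Snrpb2 the ETS letters stand 2 times in reverse complement.
Snrpg, chr6:86371290-86371539: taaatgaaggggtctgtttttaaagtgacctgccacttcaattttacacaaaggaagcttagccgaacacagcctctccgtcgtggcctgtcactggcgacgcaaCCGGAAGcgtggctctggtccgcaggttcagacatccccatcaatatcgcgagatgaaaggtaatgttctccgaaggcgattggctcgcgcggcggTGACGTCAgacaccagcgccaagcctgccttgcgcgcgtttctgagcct
Snrpb2, chr2:143062819-143063068: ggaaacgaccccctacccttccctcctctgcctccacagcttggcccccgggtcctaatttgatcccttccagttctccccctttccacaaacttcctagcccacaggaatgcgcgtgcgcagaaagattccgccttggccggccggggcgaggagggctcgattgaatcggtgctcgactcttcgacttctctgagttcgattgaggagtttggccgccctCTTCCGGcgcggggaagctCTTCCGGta
Snrnp200, chr2:127208136-127208385: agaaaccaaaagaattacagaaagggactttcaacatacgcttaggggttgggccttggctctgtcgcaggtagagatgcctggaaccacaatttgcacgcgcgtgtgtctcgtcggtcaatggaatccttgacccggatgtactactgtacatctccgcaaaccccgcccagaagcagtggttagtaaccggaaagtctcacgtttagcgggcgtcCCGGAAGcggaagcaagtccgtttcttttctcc

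Other spliceosome genes were read for comparison, from a list of further tri-snRNP, U1, U2 and U11/U12 factors, the Prp19 complex and catalytic factors, SR proteins and snRNP assembly factors. Of 64 measured at 7 d, 8 were lower past 1.2-fold (12.5%, the same share as over all loci) and 1 was higher, with a median of -0.08. The 11 under 1500 nt had a median of -0.18 and 4 were lower, and the 53 longer ones had a median of -0.05 with 4 lower. Nhp2l1, which binds the U4 RNA, went from 110.2 FPKM for saline to 89.4 for cocaine, and Phf5a, a small SF3b subunit with a symbol outside the rule, from 28.9 to 23.5. Bud31 went from 40.4 to 29.6, and Zmat5, of the U11/U12 snRNP, had a log2 ratio of -0.36. The longer ones past the limit were Prpf3 (5.48 and 4.17), Plrg1 (18.2 and 14.9), Srsf3 (51.7 and 42.5) and Zrsr2 (17.4 and 13.9), and the higher one was the U5 helicase gene Ddx23 (14.0 and 16.9). At 2 h 4 of 64 were lower and 4 higher, and at 24 h 1 of 65 was lower and 2 were higher. The genes that assemble Sm rings onto the RNAs, such as the Gemin genes, gave 9 of 12 measured at 7 d, with a median of -0.15 and 0 past 1.2-fold.

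Second rows of members were low, and rows without a usable value (a further Snrnp70 row and the pseudogene Snrp1c-ps2) numbered 2, 2 and 1 at the 3 times. The second Snrnp70 row had 3.39 and 2.35 FPKM at 2 h and 3.29 and 3.97 at 24 h, the second Snrpn row 4.28 and 4.62 and then 4.92 and 4.69, and the second Snrpd1 row 1.57 and 1.18 at 7 d. The separate Sf3b5 locus at 24 h was under 1 FPKM, with 0.453 and 0.561. Several members had a span that more than 1 row listed at 7 d, among them Sf3b3 with 9 rows and Snrpd3, Sf3a1 and Sf3b4 with 4 each.

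Markers of the tissue and of other cells were read in the same tables. Excitatory neuron markers, 6 of 6 listed, summed to 559 to 635 FPKM over the 6 groups, of which Slc17a7 made up 466 to 532, and striatal markers, 2 of 4 measured, summed to 2.72 to 3.21. At 7 d the lower expressed excitatory markers Neurod6 and Fezf2 had log2 ratios of -0.41 and -0.39, and Cux2 had 0.30. Oligodendrocyte markers at 7 d summed to 713 FPKM with saline and 698 with cocaine, microglial ones to 116 and 118, endothelial ones to 63.3 and 70.6, and astrocyte ones to 281 and 312. Interneuron markers summed to 403 and 371, of which Sst made up 262 and 229. Pvalb was at 47.1 and 44.1 FPKM, while Gad1 was at 75.1 and 78.1 and Gad2 at 19.0 and 19.7. Choroid plexus markers, 4 of 4 listed at 7 d, summed to 3.36 and 9.53, with Ttr at 0.284 and 6.54 FPKM, Folr1 at 0.668 and 0.290, Kl at 0.376 and 0.531 and Kcnj13 at 2.04 and 2.16. Red blood cell markers, 5 of 5, summed to 452 and 529 at 7 d, with 323 and 504 at 2 h and 458 and 504 at 24 h. Their part in the member values was not tested.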

How the data were processed

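RNA was sequenced from the PFC of C57BL/6 mice (C57BL/6 J in the methods) in 12 libraries, 2 for each of 6 groups. Reads were trimmed and aligned by the authors, who used TopHat2 (2.0.12 in the submitters' processing notes, which also list Cufflinks 2.2.1, Trimmomatic 0.32 and CASAVA 1.8.2) and then Cuffdiff for saline and cocaine at each time. The deposited FPKM values are the authors' pooled values, 1 per group. The deposited tables also hold the authors' log2 fold change, test statistic, p-value and q-value for each comparison, none of which was used. The first value column was read as saline and the second as cocaine, as the column codes alone do not say which is which. Every sample column had a group (0 without one).

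FPKM tables do not give the reads behind a value, so its counting error was not computed. With 1 pooled value per group no test, SD or interval was computed. A log2 ratio used a pseudocount of 0.1 FPKM and loci with a mean of at least 1 FPKM, it understates the change of low genes, and 1.2-fold was the limit for a count. Transcript lengths came from GENCODE M1 by symbol, or by RefSeq synonym on the same chromosome, and were found for 86.7%, 86.1% and 86.1% of the named genes at 2 h, 24 h and 7 d. The length trend was the median of all genes in 20 groups by length. The loci were read as GRCm38, since 41 of 41 members overlapped their symbol in that RefSeq build and 2 of the 39 named in the NCBIM37 annotation did so there, although the methods name mm9. Coordinates are printed counting from 1.

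The members and gene lists were chosen with earlier results of these data known. Genes were named by rule: every member past 1.2-fold, the extremes of each family, the highest and lowest level, members whose length goes against their family, and joint or unusable loci. Other members are named for their role in the particle. The ratio, the 1.2-fold call, the choice of row and the removal of a length trend were tested first on data with planted values. The group medians and member counts were not tested in this way. Python 3.11.15, pandas 2.3.3, numpy 2.4.6, scipy 1.17.1 and matplotlib 3.10.9 were used.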

Additional observations from a re-analysis of the deposited data

Results flagged for a closer look

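A second row of Snrnp70, the U1-70K gene, listed over the same span as the first, had a log2 ratio of -0.51 at 2 h, from 3.39 FPKM for saline to 2.35 for cocaine, and of 0.26 at 24 h, from 3.29 to 3.97. The 2 ratios lie past 1.2-fold in opposite directions. The first row, at 31.1 and 33.5 FPKM for saline at the 2 times, had ratios of 0.12 and 0.04. The values are pooled, and the difference between the times was not tested.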

How the results depend on the processing

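Of 153 summary values recomputed under 13 alternatives, 134 kept their value, taken as a median within 0.1 on the log2 scale or a count within 1.5 times, and 19 moved. Subtracting the length trend moved each 7 d result: 3 members were lower instead of 11 and 1 higher instead of 0, the member median changed sign from -0.09 to 0.018, the difference of Snrp and Lsm from Sf3 and Snrnp genes from -0.15 to -0.021, and the difference of short from long members from -0.29 to -0.094. With a limit of 1.1-fold, the 2 h comparison had 5 members lower and 5 higher, the 24 h comparison 7 lower and 5 higher, and the 7 d comparison 18 lower and 6 higher. At 1.5-fold, 2 were lower at 7 d and 0 higher at 2 h. The shares over all loci at 1.1-fold and 1.5-fold were not computed. These counts therefore show how the limit acts and are no result about the members. The 2 members higher at 2 h became 0 with a pseudocount of 1 FPKM or a mean of at least 5 FPKM, and 1 when the median of all loci or the length trend was subtracted. Counting every member row gave 1 lower at 2 h and 1 higher at 24 h, both the second Snrnp70 row. That alternative, leaving out spans listed in several rows, median transcript length and coding length under 450 nt were chosen after seeing the data. The cause of these moves was not tested beyond the construction of each setting.

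No paired analysis was possible because the tables hold 1 pooled value per group and no values per library, and leaving out a library was not run for the same reason. The spread between the 2 libraries of a group and the reads behind each FPKM are not given by the tables used here.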
